A study of Mus musculus with 2 samples.

Results

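Glucose entry, glycolysis, lactate handling and the hypoxia factors that control them were described in the uterus of mice with normal or repressed VEGF. The rule lists 35 genes by name and uses no measured value, although the list was drawn up with earlier results of these data known. The table of 14678 genes held 34 of them, while Gapdh was not analysed here. The assay (DGE) counts short sequence tags, and the copies of a gene are the tags assigned to it in a library. The deposited TPM values are copies per 1000000 clean tags of the library and hold no length term.

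Both groups were uteri of double transgenic females (VEGFtetO/tetO/beta-AKtg/wt) at gestation day 2.5, before implantation. Operator sequences sit in the promoter of both Vegfa alleles, and a beta-actin promoter drives the repressor fusion tetR-Krab in cells throughout the body. The Dox+ animals ate doxycycline chow, which releases the repressor, and are labelled VEGF-normal (wild type). The Dox- animals ate chow without the drug and are the VEGF-repressed group. According to the study, the mice were bred on doxycycline chow, which was withdrawn from the Dox- animals weeks before collection. The study also reports lower ovulation in Dox- females. Doxycycline itself, the level of VEGF in the uterus or elsewhere, and the lower ovulation therefore cannot be told apart. RNA of 3 uteri was pooled for each of the 2 libraries, with 1 library per group. A difference between them has no replicate check, and every call given here compares these libraries, not the conditions. The intervals cover counting error only, and reads without molecular identifiers are not independent molecules.

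The libraries held 5985925 clean tags (Dox+) and 5844314 clean tags (Dox-), of which 4437506 and 4218459 were assigned to genes. A count of 3 copies, the floor for folds, equals 0.501 (Dox+) or 0.513 (Dox-) TPM. Vegfa, the targeted gene, had 247 copies in Dox+ and 125 in Dox-, which was 1.93-fold lower (95% interval 1.55 to 2.41). All 7 markers of uterine identity had rows in the table, with Wnt4 at 0 copies in Dox+ and 18 in Dox-. They summed to 8542 copies in Dox+ and 4179 in Dox-. Hoxa10, Hoxa11 and Hand2 were called lower (2.87-fold, 3.20-fold and 6.73-fold), and Esr1 and Pgr were called higher (1.63-fold and 1.87-fold). The members held 0.739% of the assigned tags in Dox+ and 0.842% in Dox-. In bulk tissue, fewer cells of a type and less RNA per cell cannot be told apart.

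Glycolysis splits glucose into pyruvate and yields ATP without oxygen. Lactate dehydrogenase then turns pyruvate into lactate and renews the NAD+ that the pathway needs, while pyruvate dehydrogenase sends pyruvate into mitochondria. Many steps are carried by several isozymes that differ by tissue. When oxygen is scarce, the HIF alpha subunits escape hydroxylation by the Egln enzymes and destruction by Vhl, pair with Arnt, and bind promoters at the core letters ACGTG or GCGTG. Glucose uptake and lactate output of the endometrium are part of the preparation for the embryo.

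Among the members, genes of the same step moved in opposite directions, and several families of isozymes changed their make-up. Of the 25 members with at least 200 combined copies, 7 were called higher in Dox- and 7 lower, and 11 were not called. A call needed an FDR below 0.05 in the Audic-Claverie test over the whole table and a fold of at least 1.5. The members called higher were Ldha, Pgk1, Tpi1, Pfkl, Hk2, Slc16a1 and Egln3. The members called lower were Slc2a3, Ldhb, Pkm2, Pfkfb3, Pdk2, Pdk3 and Vhl. Across all 6547 genes with at least 200 combined copies, 15.2% were called higher and 14.7% lower. The median log2 ratio (Dox- over Dox+) was 0.16 over these members and 0.03 over all such genes. Egln3 reached 200 copies only through the Dox- library. Slc16a1 (97 copies in Dox+ and 144 in Dox-) and Vhl (157 and 91) likewise passed the limit only through the library where they were higher. With at least 20 combined copies, 33 members were tested and Aldoc, Slc16a3, Eno3 and Slc2a4 were added, which gave 9 higher and 9 lower. The shares over all 12079 genes at that limit were 15.9% higher and 15.6% lower.

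**Figure D1:**
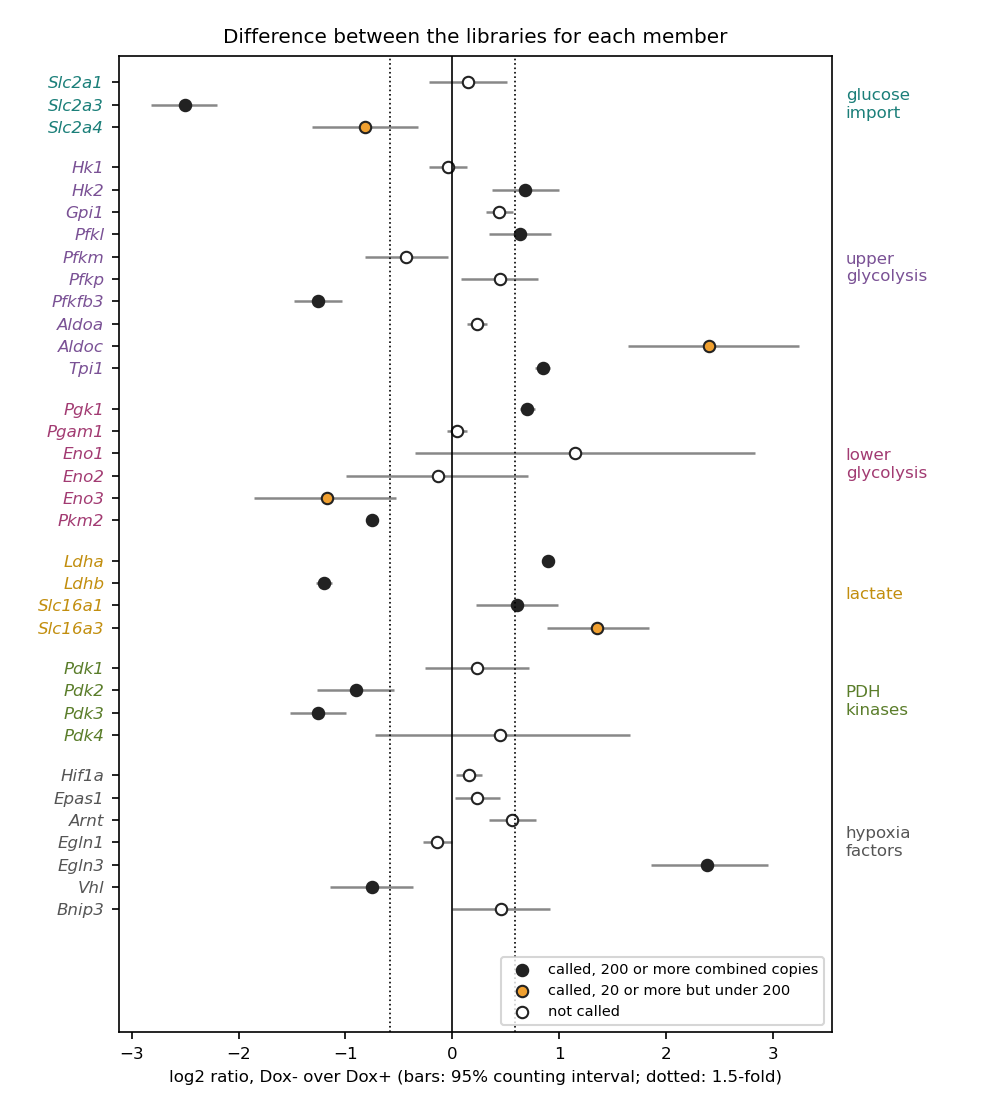
Log2 ratio (Dox- over Dox+) of the copies per clean tag for each of the 34 members, grouped by step, with horizontal bars for the 95% counting interval and dotted lines at 1.5-fold. Filled black points are the 7 members called higher and the 7 called lower with at least 200 combined copies, and orange points are the 4 called with at least 20 but under 200 copies. Slc2a3 lies farthest to the left, and Aldoc and Egln3 farthest to the right.

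Promoters are shown for members on which the lactate, lower glycolysis and hypoxia results turn, in both directions, and for Pfkfb3 and Pdk2, which were called lower and hold ACGTG. The sequences are RefSeq windows of GRCm38.p6 from 250 bases before to 50 bases after the annotated start. Both strands were searched for ACGTG and GCGTG, the 2 forms of the HIF core. CACGTG, which is also bound by MYC and USF factors, holds ACGTG on both strands, so the matches overlap. Capitals mark every match on either strand.
Ldha (chr7:46845554-46845853, plus strand): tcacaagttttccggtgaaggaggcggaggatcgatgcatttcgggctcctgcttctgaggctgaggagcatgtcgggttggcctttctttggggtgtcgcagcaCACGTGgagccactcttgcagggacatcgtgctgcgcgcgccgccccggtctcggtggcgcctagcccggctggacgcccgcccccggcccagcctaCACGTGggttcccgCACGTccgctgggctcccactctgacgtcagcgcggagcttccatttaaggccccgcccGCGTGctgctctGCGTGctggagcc
Ldhb (chr6:142507908-142508207, minus strand): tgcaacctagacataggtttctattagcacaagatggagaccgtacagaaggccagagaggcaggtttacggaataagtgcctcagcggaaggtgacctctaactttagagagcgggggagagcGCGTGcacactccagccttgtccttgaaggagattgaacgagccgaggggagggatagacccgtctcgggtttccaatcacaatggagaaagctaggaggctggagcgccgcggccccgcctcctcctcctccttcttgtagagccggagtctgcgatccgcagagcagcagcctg
Pgk1 (chrX:106186850-106187149, plus strand): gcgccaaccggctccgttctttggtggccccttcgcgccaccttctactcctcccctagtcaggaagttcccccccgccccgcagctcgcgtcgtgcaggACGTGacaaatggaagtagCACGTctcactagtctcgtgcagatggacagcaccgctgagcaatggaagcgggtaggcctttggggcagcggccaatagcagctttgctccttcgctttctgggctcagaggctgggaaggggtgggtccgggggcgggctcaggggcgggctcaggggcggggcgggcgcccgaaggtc
Slc16a3 (chr11:120948817-120949116, plus strand): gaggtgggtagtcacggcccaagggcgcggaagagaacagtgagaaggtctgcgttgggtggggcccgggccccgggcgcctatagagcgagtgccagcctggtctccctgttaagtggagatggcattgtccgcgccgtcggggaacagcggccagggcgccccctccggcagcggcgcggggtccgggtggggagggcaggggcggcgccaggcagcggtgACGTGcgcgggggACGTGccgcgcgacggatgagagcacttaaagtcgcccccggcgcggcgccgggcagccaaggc
Pkm2 (chr9:59656326-59656625, plus strand): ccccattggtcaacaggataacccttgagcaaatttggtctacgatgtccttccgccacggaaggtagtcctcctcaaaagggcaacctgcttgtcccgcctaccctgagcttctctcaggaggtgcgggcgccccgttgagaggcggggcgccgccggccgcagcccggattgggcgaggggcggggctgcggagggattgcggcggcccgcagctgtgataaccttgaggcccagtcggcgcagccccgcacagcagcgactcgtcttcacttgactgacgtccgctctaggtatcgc
Egln3 (chr12:54203825-54204124, minus strand): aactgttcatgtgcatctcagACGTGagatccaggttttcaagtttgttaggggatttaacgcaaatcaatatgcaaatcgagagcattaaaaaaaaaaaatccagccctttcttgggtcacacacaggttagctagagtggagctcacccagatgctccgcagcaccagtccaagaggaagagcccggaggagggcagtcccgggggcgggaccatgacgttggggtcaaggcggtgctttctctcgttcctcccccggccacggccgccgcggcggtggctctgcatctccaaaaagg
Vhl (chr6:113623744-113624043, plus strand): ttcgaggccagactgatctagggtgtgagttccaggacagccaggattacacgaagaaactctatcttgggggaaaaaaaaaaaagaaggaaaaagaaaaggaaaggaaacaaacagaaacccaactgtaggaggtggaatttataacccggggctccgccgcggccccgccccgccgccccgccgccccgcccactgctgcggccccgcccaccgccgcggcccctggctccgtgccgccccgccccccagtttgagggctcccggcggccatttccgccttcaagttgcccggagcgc
Pfkfb3 (chr2:11553880-11554179, minus strand): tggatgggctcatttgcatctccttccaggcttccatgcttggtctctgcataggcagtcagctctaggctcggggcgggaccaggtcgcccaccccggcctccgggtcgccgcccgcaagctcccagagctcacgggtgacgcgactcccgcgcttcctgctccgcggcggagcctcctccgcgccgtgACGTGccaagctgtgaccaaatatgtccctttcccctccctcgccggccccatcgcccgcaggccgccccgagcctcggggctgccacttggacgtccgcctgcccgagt
Pdk2 (chr11:95041322-95041621, minus strand): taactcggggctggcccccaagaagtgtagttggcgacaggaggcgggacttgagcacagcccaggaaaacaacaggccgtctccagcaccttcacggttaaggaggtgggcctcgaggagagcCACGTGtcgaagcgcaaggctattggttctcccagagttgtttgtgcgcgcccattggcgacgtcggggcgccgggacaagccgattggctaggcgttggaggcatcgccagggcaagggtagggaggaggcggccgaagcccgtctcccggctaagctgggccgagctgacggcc

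The window of Ldha held 5 matches to ACGTG, with 2 copies of CACGTG that each count on both strands, and 2 matches to GCGTG. The window of Ldhb held no ACGTG and 1 GCGTG. Pgk1 and Slc16a3 held 2 matches to ACGTG each, and Egln3 held 1. Pkm2 and Vhl, both called lower, held neither core, while Pfkfb3 held 1 ACGTG and Pdk2 held 1 CACGTG. Promoter entries matched 31 of the 34 members, and Slc2a3, Slc2a4 and Epas1 had no entry. In the first window listed for each gene, ACGTG was found for 7 of the 9 members called higher from 20 combined copies. Pfkl and Tpi1 were the members called higher without it. It was found for 3 of the 7 members called lower that had an entry (Pfkfb3, Pdk2 and Pdk3) and for 6 of the 15 not called. Over the first windows of all 27025 genes the share was 19.7%. GCGTG was found for 44.4% of the members called higher, 42.9% of those called lower and 60.0% of those not called, against 32.5% of all genes. With either core counted, the shares were 88.9%, 71.4% and 73.3%, against 43.8% of all genes, so the members lay above all genes whether or not they were called. The members were chosen by pathway and include known HIF targets, and all genes were not matched to them in base content. The difference from all genes is therefore no test. A match is a description of the letters in the window and not a binding site.

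The 3 glucose importers summed to 827 copies in Dox+ and 293 in Dox-, and Slc2a3 made up most of the gap. Slc2a3, which encodes the high affinity transporter GLUT3 (NCBIM37 chr6:122677827-122751658), had 604 copies in Dox+ and 104 in Dox-. It fell 5.67-fold (4.60 to 7.05), from rank 1286 to rank 6270 among all genes. Slc2a1, the widely expressed transporter GLUT1, had 124 copies in Dox+ and 134 in Dox-, a ratio of 1.11 (0.860 to 1.42). Slc2a3 therefore held 73.0% of the tags of the 3 transporters in Dox+ (69.9 to 76.0) and 35.5% in Dox-, where the upper bound was 41.3%. The ratio of Slc2a3 to Slc2a1 copies was 4.87 in Dox+ and 0.776 in Dox-, a difference of 6.28-fold (4.49 to 8.76) that depends neither on library size nor on transcript length. Slc2a4, the insulin-responsive GLUT4 of muscle and fat (chr11:69756045-69761690), had 99 copies in Dox+ and 55 in Dox-. It fell 1.76-fold (1.25 to 2.49) at the lower copy limit.

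The first steps of glycolysis were higher in sum in Dox-, at 8797 copies against 6593, and Tpi1 made up most of the gap. Of 9 members with at least 200 combined copies, 3 were called higher, 1 lower (the regulator Pfkfb3) and 5 neither. Over all such genes 15.2% were called higher and 14.7% lower. Tpi1, the triose phosphate isomerase (chr6:124760604-124764314), had 2379 copies in Dox+ and 4179 in Dox-, and rose 1.80-fold (1.71 to 1.89). Of the upper members it had the highest level in both libraries, in copies and in copies per kb of transcript. Hk2, an inducible hexokinase that traps glucose in the cell (chr6:82675019-82724448), had 139 copies in Dox+ and 218 in Dox-, and rose 1.61-fold (lower bound 1.29). Hk1, the constitutive hexokinase, had 538 copies in Dox+ and 511 in Dox-, a ratio of 0.973 (0.860 to 1.10). The Hk2 share of the pair was 20.5% in Dox+ and 29.9% in Dox-, and the ratio of Hk2 to Hk1 differed 1.65-fold (1.28 to 2.13). Hk1 remained the more abundant hexokinase in copies and per kb.

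Phosphofructokinase, the committed step, showed a change of subunits. Pfkl, the liver type subunit (chr10:77449692-77472828), had 169 copies in Dox+ and 256 in Dox-, and rose 1.55-fold (1.27 to 1.90). Pfkm, the muscle type, had 135 copies in Dox+ and 98 in Dox-, which was 1.34-fold lower (1.03 to 1.76) and not called. Pfkp, the platelet type, had 116 copies in Dox+ and 154 in Dox-, a ratio of 1.36 (1.06 to 1.75), also not called. Relative to Pfkm, Pfkl was 2.09-fold higher in Dox- than in Dox+ (1.49 to 2.93) and Pfkp 1.83-fold higher (1.26 to 2.65). Between Pfkl and Pfkp the ratio differed by 1.14 (0.827 to 1.57), which includes no difference. Pfkfb3, which makes the fructose 2,6-bisphosphate that activates phosphofructokinase (chr2:11393057-11423728), had 570 copies in Dox+ and 233 in Dox-. It fell 2.39-fold (2.05 to 2.79), so the activator's enzyme and the liver subunit moved in opposite directions.

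Of the other upper enzymes, Gpi1, the glucose phosphate isomerase, had 882 copies in Dox+ and 1169 in Dox-, a ratio of 1.36 (1.24 to 1.48) below the fold limit. Aldoa, the main aldolase, had 1648 copies in Dox+ and 1891 in Dox-, a ratio of 1.18 (1.10 to 1.26). Aldoc, the aldolase typical of brain (chr11:78136470-78141283), had 17 copies in Dox+ and 88 in Dox-. It rose 5.30-fold (3.13 to 9.51) at the lower copy limit, the largest ratio of any member. Aldoa still held most of the aldolase tags, and the share of Aldoc in Dox- was 4.45%. The ratio of Aldoc to Aldoa differed 4.51-fold (2.65 to 8.12).

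In the later steps of the pathway Pgk1 and Pkm2 moved in opposite directions, and the sum was 11315 copies in Dox+ and 10084 in Dox-. Pgk1, the phosphoglycerate kinase that makes the first ATP (chrX:103382439-103399038), had 2711 copies in Dox+ and 4307 in Dox-. It rose 1.63-fold (1.55 to 1.71). Pkm2, the row for pyruvate kinase M (chr9:59504383-59527182), had 6674 copies in Dox+ and 3866 in Dox-. It fell 1.69-fold (1.62 to 1.75), from rank 94 to rank 134, and the tags do not separate the M1 and M2 splice forms. Pgam1, the phosphoglycerate mutase between them, had 1830 copies in Dox+ and 1845 in Dox-, a ratio of 1.03 (0.967 to 1.10). Enzymes of the same path were thus called higher, not called and called lower in Dox-.

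The enolases were counted sparsely. Eno3, the muscle enolase (chr11:70470704-70476015), had 67 copies in Dox+ and 29 in Dox-, and fell 2.26-fold (1.44 to 3.62) at the lower copy limit. Eno2, the neuronal enolase, had 27 copies in Dox+ and 24 in Dox-. Eno1, the ubiquitous enolase, had 6 copies in Dox+ and 13 in Dox-, the lowest level of any member in Dox+ in copies and per kb. Enolase 1 has near-identical copies in the genome and only unambiguous tags were counted, so the level of Eno1 and the enolase shares are uncertain.

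**Figure D2:**
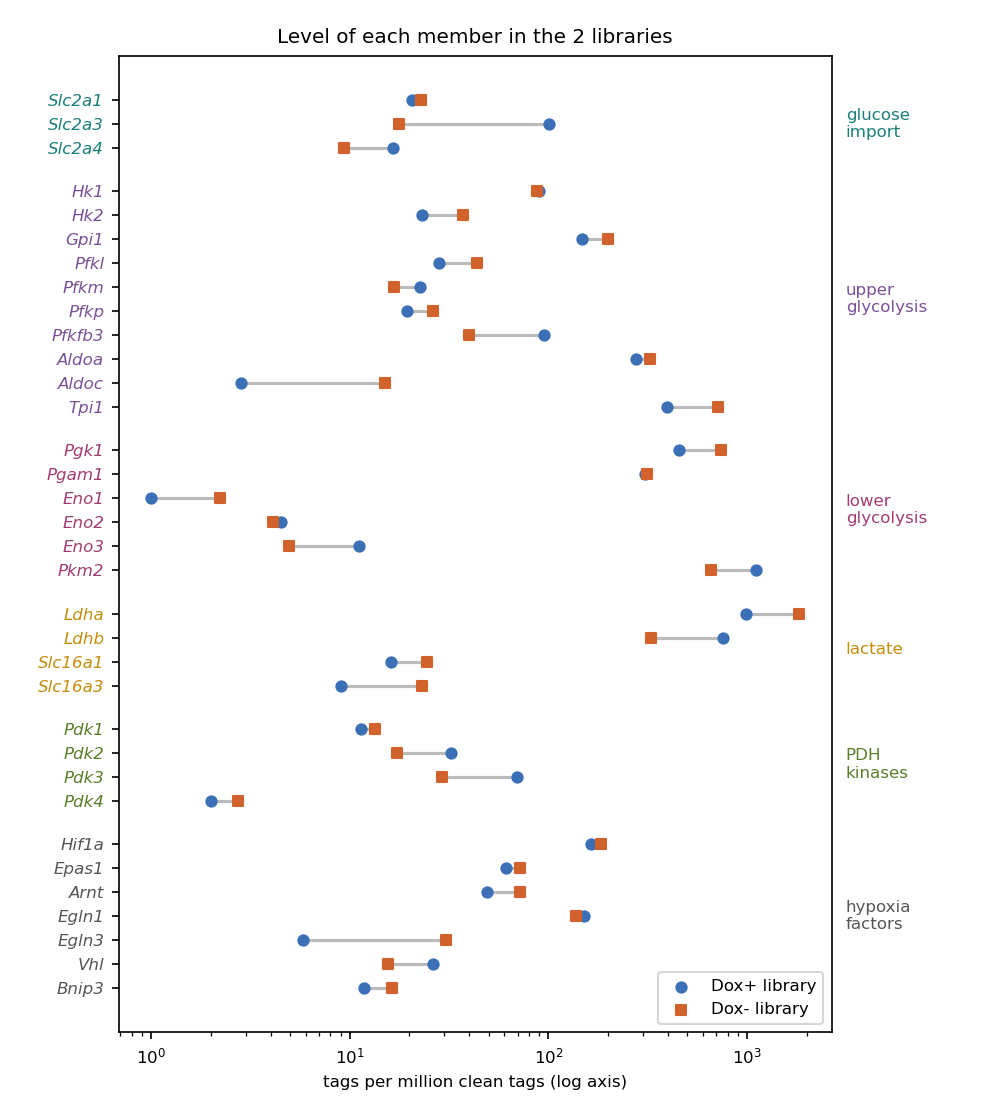
Level of each of the 34 members in tags per 1000000 clean tags (TPM, log axis, no length term), grouped by step, with 1 circle for the Dox+ library and 1 square for the Dox- library. The lowest point is Eno1 in Dox+, at 6 copies, and the highest is Ldha in Dox-, at 1832 TPM, and the points of Ldha and Ldhb move apart in opposite directions.

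Lactate dehydrogenase showed the plainest exchange of isozymes, with Ldha higher and Ldhb lower in Dox-. Ldha, the subunit that favours lactate production (chr7:54096845-54110997), had 5899 copies in Dox+ and 10707 in Dox-. It rose 1.86-fold (1.80 to 1.92), from rank 104 to rank 39 of all genes. Ldhb, the subunit that favours use of lactate (chr6:142438769-142456477), had 4511 copies in Dox+ and 1916 in Dox-. It fell 2.30-fold (2.18 to 2.43), from rank 131 to rank 306. Their sum was 10410 copies in Dox+ and 12623 in Dox-.

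The Ldha share of these tags was 56.7% in Dox+ (55.7 to 57.6) and 84.8% in Dox- (84.2 to 85.4). The ratio of Ldha to Ldhb was 1.31 in Dox+ and 5.59 in Dox-, a difference of 4.27-fold (4.01 to 4.55). Per kb of transcript the ratio was 0.966 in Dox+ and 4.13 in Dox-. Which subunit was the more abundant in Dox+ therefore depends on the scale, while Ldha was above Ldhb on both scales in Dox-.

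The monocarboxylate transporters, which carry lactate across the membrane with a proton, were both higher in Dox-. Slc16a1, the widely expressed MCT1 (chr3:104442591-104462385), had 97 copies in Dox+ and 144 in Dox-, and rose 1.52-fold (1.17 to 1.99), just past the fold limit. Slc16a3, the export transporter MCT4 of glycolytic cells (chr11:120809794-120822182), had 54 copies in Dox+ and 135 in Dox-. It rose 2.56-fold (1.85 to 3.58) at the lower copy limit. The share of Slc16a3 in the pair was 35.8% in Dox+ and 48.4% in Dox-, and its ratio to Slc16a1 differed 1.68-fold (1.10 to 2.59).

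**Figure D3:**
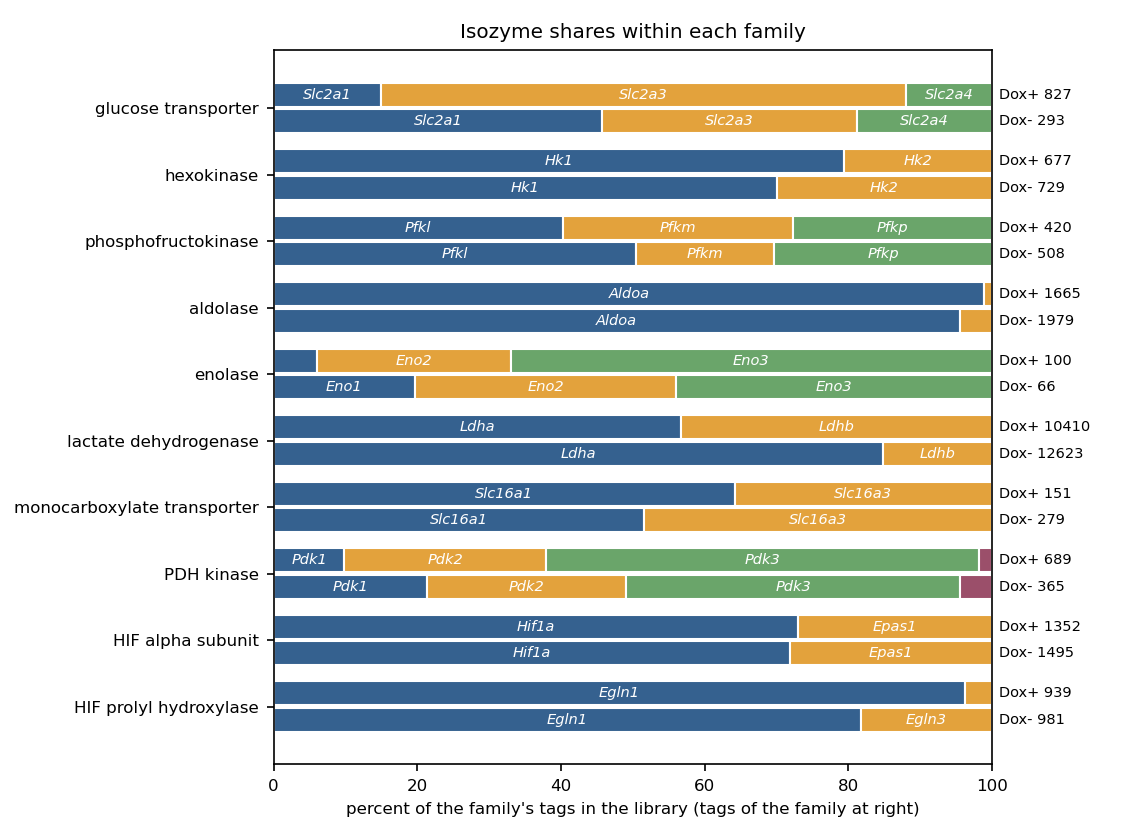
Share of each isozyme among the tags of its family (percent) in the Dox+ and Dox- libraries, as stacked bars for the 10 families. Each family holds only the listed members, so related genes outside the member list are not in the shares. Ldha takes 56.7% of the lactate dehydrogenase tags in Dox+ and 84.8% in Dox-, Slc2a3 takes 73.0% and 35.5% of the glucose transporter tags, and the Hif1a and Epas1 bars look alike.

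The pyruvate dehydrogenase kinases, which shut the mitochondrial route for pyruvate, had 689 copies in Dox+ and 365 in Dox-. Pdk3 (chrX:91009946-91077540) had 416 copies in Dox+ and 170 in Dox-, and fell 2.39-fold (1.99 to 2.87). Pdk2 (chr11:94887572-94902668) had a TPM of 32.2 with doxycycline and 17.3 without it, and fell 1.87-fold (1.46 to 2.40). Pdk1, the kinase best known as a HIF target, had 68 copies in Dox+ and 78 in Dox-, a ratio of 1.17 (0.838 to 1.65). Pdk4, the fasting-induced kinase, had 12 copies in Dox+ and 16 in Dox-, too few for a direction. The share of Pdk1 was 9.87% of the copies in Dox+ and 21.4% in Dox-, and 4.38% and 10.4% per kb of transcript. Relative to Pdk1, Pdk3 was 2.81-fold lower in Dox- (1.90 to 4.14) and Pdk2 2.19-fold lower (1.43 to 3.35).

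Among the hypoxia factors the oxygen sensor Egln3 rose and the ubiquitin ligase subunit Vhl fell, and none of the HIF subunits was called at 1.5-fold. Hif1a had 987 copies in Dox+ and 1075 in Dox-, a ratio of 1.12 (1.02 to 1.22). Epas1, which encodes HIF-2 alpha, had 365 copies in Dox+ and 420 in Dox-, a ratio of 1.18 (1.02 to 1.36). Their balance was close to equal in the libraries, since the ratio of Epas1 to Hif1a differed by 1.06 (0.893 to 1.25). Arnt, the partner of both, had 293 copies in Dox+ and 422 in Dox-, a ratio of 1.48 (1.27 to 1.72) just under the fold limit, and was called with an absolute log2 ratio above 0.5 as the limit. These are levels of mRNA, and the alpha subunits are controlled mainly as proteins.

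Egln3, the prolyl hydroxylase PHD3 that HIF itself induces (chr12:55279968-55304847), had 35 copies in Dox+ and 179 in Dox-, and rose 5.24-fold (3.63 to 7.76). Egln1, the main hydroxylase PHD2, had 904 copies in Dox+ and 802 in Dox-, a ratio of 0.909 (0.825 to 1.0004), which includes no difference. Egln3 was 3.73% of the pair in Dox+ and 18.2% in Dox-, so Egln1 stayed the more abundant of the pair in both libraries, in copies and per kb. Egln2, which is not a member, had 806 copies in Dox+ and 626 in Dox- and is outside these shares. It was named after its values were seen. The ratio of Egln3 to Egln1 differed 5.76-fold (3.94 to 8.64). Vhl (chr6:113573953-113581627) had 157 copies in Dox+ and 91 in Dox-, and fell 1.68-fold (1.29 to 2.21). Bnip3, a mitochondrial autophagy receptor and HIF target, had 71 copies in Dox+ and 95 in Dox-, a ratio of 1.37 (0.997 to 1.89). Of the 15 isozyme pairs compared in the 10 families, 11 had an interval of the change that left out equality. Several pairs share a member, not every possible pair was compared, and the intervals cover counting error only. The share among pairs of other genes was not computed, so this count does not set the isozymes apart.

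Other targets of HIF, listed apart from the members, were higher more often than lower in Dox-. The members also include known HIF targets, and 7 members were called higher and 7 lower, with Slc2a3 and Pfkfb3 among the lower. The list was written with earlier results of these data known, so the counts are a description and not a test. Of 27 listed genes 26 were in the table and 14 had at least 200 combined copies, of which 6 were called higher and 1 lower. The shares over all genes were 15.2% and 14.7%. The gene called lower was Vegfa, which the transgene represses. The median log2 ratio was 0.36, beside 0.03 over all genes at this limit. From 20 copies 11 of 26 were called higher and 1 lower, where all genes gave 15.9% and 15.6%, with a median of 0.42. P4ha2, a collagen prolyl hydroxylase, had 391 copies in Dox+ and 596 in Dox-, and rose 1.56-fold. Bhlhe40, a transcriptional repressor, had 190 and 458 copies, and rose 2.47-fold. Plod2, a collagen lysyl hydroxylase, had 156 and 417 copies, and rose 2.74-fold. Tfrc, the transferrin receptor for iron uptake, had 118 and 336 copies, and rose 2.92-fold. Car12, also called higher at 75 and 343 copies, was named because it reached 200 copies only through the Dox- library. Higd1a, which had the most copies of the list, was not called at 1105 and 1525 copies. Adm and Angptl4, a vascular peptide and a lipase inhibitor known as HIF targets, were not called at 68 and 73 copies and at 513 and 495 copies. They were named after their values were seen.

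The regulators of HIF were called in both directions. All 15 listed genes were in the table, and of 9 with at least 200 combined copies 1 was called higher and 3 lower, with a median log2 ratio of -0.33. From 20 copies 3 of 15 were called higher and 4 lower, with a median of -0.13. All genes gave 15.2% higher and 14.7% lower from 200 copies, and 15.9% and 15.6% from 20. Both elongin partners of Vhl were called, in opposite directions. Tceb2, elongin B, had 1718 copies in Dox+ and 1040 in Dox-, and fell 1.61-fold. Tceb1, elongin C, had 485 and 732 copies, and rose 1.55-fold. Os9, which has been linked to HIF hydroxylation, had 797 and 385 copies, and fell 2.02-fold. Cited2, which competes with HIF for its coactivator, had 140 and 65 copies, and fell 2.10-fold. It reached 200 combined copies only through the Dox+ library.

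Around the glucose and lactate transporters, 4 of the 12 further transport genes with at least 20 combined copies were called higher and 3 lower. All genes gave 15.9% higher and 15.6% lower at that limit. Emb, the embigin chaperone of monocarboxylate transporters, had 508 copies in Dox+ and 1086 in Dox-, and rose 2.19-fold. Bsg, the basigin chaperone of the same carriers, had the most copies of the list and was not called, at 736 and 965. Slc2a12, the glucose transporter GLUT12, had 273 and 87 copies, and fell 3.06-fold.

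The dehydrogenase complex that the kinases control had too few genes past the copy limit to set its calls apart from those of all genes. None of the 6 genes of the pyruvate dehydrogenase complex and pyruvate carrier with at least 200 combined copies was called by the Audic-Claverie rule, and 1 of 9 was called higher and 1 lower from 20 copies, where all genes gave 15.9% and 15.6%. The median log2 ratio of the 6 was 0.26. Pdha1, the catalytic alpha subunit, had the most copies, 1400 in Dox+ and 1867 in Dox-, a ratio of 1.37. Of the genes for gluconeogenesis and pyruvate carboxylation, 1 of 3 was called higher and 1 lower. All genes gave 15.2% and 14.7% from 200 combined copies, the limit for this list and those that follow in this paragraph. These lists are too short to be set apart from that. Pcx, the mitochondrial pyruvate carboxylase, had 959 and 122 copies, and fell 7.67-fold (6.35 to 9.34). Pck2, the mitochondrial form of phosphoenolpyruvate carboxykinase, had 371 and 627 copies, and rose 1.73-fold. Of the remaining glycolytic isozymes and regulators, 1 of 3 was called, lower. Galm, which converts the anomers of glucose and galactose, had 834 and 96 copies, and fell 8.48-fold. It passed 200 combined copies only through the Dox+ library. In the pentose phosphate pathway 1 of 7 was called, higher. G6pdx, its entry enzyme, had 281 and 434 copies, and rose 1.58-fold, and Tkt, the transketolase with the most copies, was not called at 1700 and 1269.

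**Figure D4:**
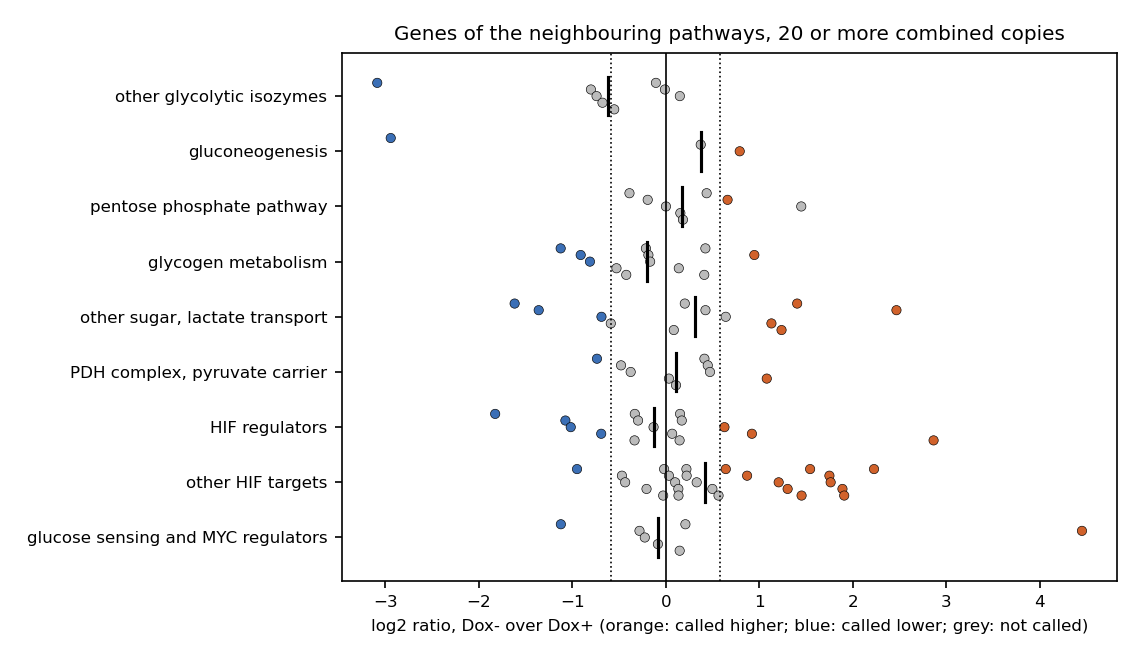
Log2 ratio (Dox- over Dox+) of each gene with at least 20 combined copies in the 9 further gene lists, as 1 point per gene (orange called higher, blue called lower, grey not called) with a bar at the median of the list and dotted lines at 1.5-fold. The genes of the list of other HIF targets lie mostly to the right of 0, with a median of 0.42, and those of HIF regulators lie on either side.

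Markers of several cell types also differed between the libraries. Over all genes with at least 20 combined copies, 15.9% were called higher and 15.6% lower. Striated muscle markers summed to 3905 copies in Dox+ and 1376 in Dox-, and all 5 of 8 listed with at least 20 combined copies were called lower. They included Acta1 at 3385 and 1241 copies, and none of the 6 in the table was at 0. Smooth muscle markers summed to 38898 and 26201 copies, with 3 of 7 called lower, and endothelial markers to 1023 and 666, with 4 of 7 called lower from 20 copies. Adipocyte markers summed to 1727 and 1241 copies, with Adipoq and Retn called lower from 20 copies. Epithelial markers summed to 8028 and 11543 copies, with 3 of 9 called higher and 1 lower. Leukocyte markers summed to 454 and 646 copies and red blood cell markers to 66 and 208, with 2 called higher from 20 copies in each list. Neural markers summed to 17 and 21 copies, and no gene of that list reached 20. Eno3 and Slc2a4, isozymes of muscle or fat, were called lower in Dox- like the muscle and fat markers, and Pfkm was below 1.5-fold. Slc2a3, called lower, is also expressed in leukocytes, whose markers were higher in sum in Dox-. The markers of uterine stroma and identity given above were lower in sum as well. The part of any of these cell types in the results was not tested.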

How the data were processed

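Total RNA of 3 uteri per group was pooled, and 1 tag library was sequenced for Dox+ and 1 for Dox-. According to the study's methods, adaptor-only, low quality and single-copy tags were removed, and unambiguous tags were assigned to mm9 reference transcripts. The submitters' processing notes name CASAVA. The enzyme that cut the tags and the aligner used are not given in the sources used here. The labels describe fragmentation of mRNA whereas the study describes tag profiling, so levels of different genes were compared as copies and as copies per kb, and an order was given only where these gave the same one. The deposited counts are raw copies per gene. The deposited TPM values were made by the authors per 1000000 clean tags, with 0.01 at a count of 0, and gave the library sizes. Deposited ratios, P-values and FDR values of the authors' own comparison were not used.

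Calls used the Audic-Claverie test of the counts, two-sided, with Benjamini-Hochberg adjustment over 14678 genes, an FDR below 0.05, a fold of at least 1.5 and at least 200 (or 20) combined copies. A gene may pass a copy limit only through the library where it is higher, and such genes of the further lists are not all marked. Counts of 3 or fewer were set to 3. Intervals are exact (Clopper-Pearson for folds and shares, conditional for ratios of isozymes) at 95%. Positions and longest transcripts came from GENCODE vM1 (NCBIM37). Members and 18 further lists were chosen with earlier results of these data known. All members were named, and of each further pathway list up to 4 called genes by combined copies (from 200) and the gene with the most copies. Alternatives were other copy limits, fold limits, scalings, Fisher's exact test, edgeR with an assumed spread, a pseudocount, and shares per kb. Results of some genes of the further lists are not reported here. Scripts were tested on simulated counts. Python 3.11.15, numpy 2.4.6, scipy 1.17.1, pandas 2.3.3, matplotlib 3.10.9, R 4.3.3 and edgeR 4.0.16 were used.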

Additional observations from a re-analysis of the deposited data

How the results depend on the processing

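With 1 library per group no replicate could be left out. No paired analysis was possible because each group has 1 library and the labels give no replicate numbers. At a fold of at least 2 in place of 1.5, 1 member was called higher (Egln3) and 4 lower (Slc2a3, Ldhb, Pfkfb3 and Pdk3). The exact test of edgeR with an assumed coefficient of variation of 0.2 called 1 higher (Egln3) and 1 lower (Slc2a3). With a coefficient of 0.4, edgeR called 0 higher and 0 lower, and 1 and 1 at an unadjusted p under 0.05 (Egln3 and Slc2a3). With 0.1 it called 5 higher, without Pfkl and Slc16a1, and 7 lower. Fisher's exact test called 7 and 7. TMM and median-ratio scaling each called 6 higher, without Slc16a1, and 7 lower, and scaling by assigned tags called 8 higher, with Arnt, and 7 lower, as did a limit on the absolute log2 ratio of 0.5. No log2 ratio of a member changed direction under the alternatives run. Per kb of transcript, the share of the first isozyme listed in each of 10 families was recomputed. It moved beyond its interval in Dox+ and Dox- for Ldha (49.1% and 80.5%), Slc2a1 (19.9% and 51.7%), Hk1 (83.3% and 75.1%), Aldoa (99.4% and 97.5%) and Pdk1 (4.38% and 10.4%), and in Dox- alone for Hif1a (74.2%) and Egln1 (77.2%). Other isozymes also moved, among them Slc2a3 (63.7% and 26.4%), Pfkm (39.0% and 24.3%) and Pdk3 (65.7% and 55.4%). The differences of these shares between the libraries kept the same direction. Members under 200 copies are limited by depth, and of these Eno1, Eno2, Pdk1, Pdk4 and Bnip3 had intervals too wide to give a direction. Of all 34 members, 25 had an interval that left out a ratio of 1.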

Other observations

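Glycogen metabolism and the regulators of glucose sensing are not part of the pathway described above, and both lists held calls in each direction. From 20 combined copies, 1 of 12 glycogen genes was called higher and 3 lower by the Audic-Claverie rule. All genes gave 15.9% higher and 15.6% lower at that limit. Ugp2, which makes UDP-glucose and had the most copies of the list, was not called at 1242 and 842 copies. The muscle phosphorylase Pygm had 116 and 52 copies and the liver phosphorylase Pygl 75 and 39, and both were called lower from 20 combined copies. Ppp1r3c, a glycogen-targeting subunit of protein phosphatase 1, had 60 and 113 copies and was called higher at that limit. These genes, under 200 copies, were named after their values were seen. Among 7 regulators of glucose sensing and MYC activity with at least 200 combined copies, 1 was called higher and 1 lower. Over all genes with that many copies the shares were 15.2% and 14.7%. Mycn had 14 copies in Dox+ and 299 in Dox-, a rise of 21.9-fold, and reached 200 combined copies only through the Dox- library. Txnip, which restrains glucose uptake, had the most copies of the list, 1586 in Dox+ and 712 in Dox-, and fell 2.17-fold.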
